A study of Mus musculus with 3 samples.

Results

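The genes described here are the interferon-induced genes and the interferon regulatory factors (IRFs), chosen by symbol alone: the interferon receptor chains and their signal transducers, the IRFs, RNA and DNA sensors, and the Ifit, Ifitm, OAS, guanylate-binding protein, immunity-related GTPase and other Ifi genes. The symbols matched 80 of the 47480 genes in the tables, and 65 of the 80 passed the filter on low counts, among 12710 genes that did. RNA-seq had been made from 3 untreated mammary tumours of the FVB-MMTV-Neu strain, in which the mouse mammary tumour virus promoter drives the Neu transgene in mammary epithelium. The labels describe orthotopic injection into syngeneic hosts, growth to a diameter of 5 mm and 7 further days without treatment, whereas the series' design text speaks of tumours from untreated MMTV-Neu mice. All 3 libraries form 1 group, numbered here in the order of deposition as tumours 1, 2 and 3. No label says whether they came from separate donor animals, so the spread given below is that between these samples.

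Interferons are secreted when cells sense foreign or misplaced nucleic acid, or, for interferon gamma, by activated T and NK cells. Type I interferons bind Ifnar1 and Ifnar2 and activate a complex with Stat2 and Irf9 that binds the interferon-stimulated response element (ISRE). Interferon gamma binds Ifngr1 and Ifngr2, acts through the gamma-activated site (GAS) and induces Irf1. In tumours these genes are expressed by cancer cells, by macrophages and other leukocytes, and by stroma, so that a bulk library reports their sum. In such a library, fewer cells of a type and less RNA per cell cannot be told apart.

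Both elements were common in the members' promoters. RefSeq promoter windows (GRCm38.p6, 250 bases before to 50 bases after a start site) were matched for 58 of the 80 members. The ISRE core, which is GAAA, 2 bases of any kind and GAAA again, was read on both strands. It occurred in 28 of these 58 genes (48.3%), compared with 3.99% of 27025 genes with windows of the same length. The GAS core TTCNNNGAA, which reads the same on both strands, occurred in 17 of 58 (29.3%), compared with 9.55% of all genes. The stretches shown next come from members picked for display, and each holds a match. Xaf1, Irf9, Ifitm5, Oasl1, Irf7 and Ifi47, also described below, had no match to either core in their windows. The stretches are 200 bases each, written 5′ to 3′ and ending before the start site, with ISRE and GAS matches in capitals.
Irf1, the interferon gamma-induced factor with the highest level of the IRFs, lies at chr11:53769814-53770013 on the plus strand and holds a GAS match and no ISRE match.
Irf1: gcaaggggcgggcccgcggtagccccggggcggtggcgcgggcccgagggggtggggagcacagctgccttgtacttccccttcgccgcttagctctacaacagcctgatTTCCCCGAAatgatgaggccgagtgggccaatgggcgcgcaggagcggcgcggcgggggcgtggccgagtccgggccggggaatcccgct
Isg15, a ubiquitin-like modifier, lies at chr4:156200819-156201018 on the minus strand, with 3 ISRE matches, each overlapping the next.
Isg15: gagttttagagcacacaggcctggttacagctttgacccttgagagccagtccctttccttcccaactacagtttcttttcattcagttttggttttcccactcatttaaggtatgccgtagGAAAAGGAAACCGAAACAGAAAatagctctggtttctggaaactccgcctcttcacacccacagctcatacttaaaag
Bst2, which encodes the virion-tethering protein tetherin, lies at chr8:71537473-71537672 on the minus strand, with 2 overlapping ISRE matches and 1 GAS match that overlaps the first of them.
Bst2: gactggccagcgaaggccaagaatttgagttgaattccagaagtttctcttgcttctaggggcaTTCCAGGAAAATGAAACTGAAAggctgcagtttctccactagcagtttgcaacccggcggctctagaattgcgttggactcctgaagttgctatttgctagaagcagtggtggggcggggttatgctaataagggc
Ifit1 and Ifit3 encode RNA-binding antiviral proteins and are neighbours. They lie at chr19:34640671-34640870 on the plus strand and at chr19:34583329-34583528 on the plus strand. Each holds 2 separate ISRE matches.
Ifit1: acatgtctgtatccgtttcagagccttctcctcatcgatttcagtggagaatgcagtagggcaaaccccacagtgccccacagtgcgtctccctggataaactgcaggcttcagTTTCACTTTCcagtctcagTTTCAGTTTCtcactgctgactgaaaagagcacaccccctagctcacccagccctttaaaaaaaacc
Ifit3: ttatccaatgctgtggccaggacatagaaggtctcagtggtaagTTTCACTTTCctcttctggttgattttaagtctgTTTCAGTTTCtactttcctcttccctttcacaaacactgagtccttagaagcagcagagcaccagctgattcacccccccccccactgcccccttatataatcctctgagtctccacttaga
Gbp2b (chr3:142594647-142594846 on the plus strand), Igtp (chr11:58199356-58199555 on the plus strand) and Oas1a (chr5:120907526-120907725 on the minus strand) are members that were higher in tumour 3 than in tumour 2. Gbp2b holds 1 ISRE match, Igtp 1 of each kind, and Oas1a 2 overlapping ISRE matches and 1 GAS match.
Gbp2b: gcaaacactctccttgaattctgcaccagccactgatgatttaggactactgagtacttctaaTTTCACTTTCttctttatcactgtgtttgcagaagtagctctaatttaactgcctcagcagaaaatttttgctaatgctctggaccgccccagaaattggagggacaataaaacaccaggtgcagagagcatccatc
Igtp: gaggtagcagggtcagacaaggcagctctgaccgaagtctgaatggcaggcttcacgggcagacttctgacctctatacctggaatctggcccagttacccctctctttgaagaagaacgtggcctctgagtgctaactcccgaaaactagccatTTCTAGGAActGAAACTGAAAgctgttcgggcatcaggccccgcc
Oas1a: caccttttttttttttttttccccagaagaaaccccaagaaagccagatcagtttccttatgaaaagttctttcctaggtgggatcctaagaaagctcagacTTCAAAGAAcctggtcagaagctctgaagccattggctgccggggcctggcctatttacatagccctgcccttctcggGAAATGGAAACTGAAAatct
A match describes letters and is not a shown binding site.

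Levels are given as CPM, that is, counts scaled to a common library size after TMM adjustment. Total estimated counts were 47449153, 11388769 and 17147394 in tumours 1, 2 and 3. A single count was therefore worth least in tumour 1, and the floor of 3 counts that a count of 0 allows was 0.0434, 0.373 and 0.191 CPM. Intervals are 95% Poisson intervals, which cover counting error only. Lane numbers in the deposited names differed, with lane 1 for tumour 1 and lane 5 for the other tumours. Lane number and tumour 1 cannot be told apart. Tumours 2 and 3 share a lane number, but the number names no flow cell or run. A shared lane or batch of tumours 2 and 3 is therefore not shown. Each tumour has 1 library, so no difference between tumours has a replicate check, and a gene was called by size, when its log2 CPM lay 1 or more from both of the others in the same direction, which is a 2-fold difference. Beyond counting noise (chi-square test over all genes, Benjamini-Hochberg adjusted), 61 of 65 members (93.8%) differed between the libraries, close to the share of all genes (94.2%). The 4 that did not were Ifi205, Ifit3, Ifitm1 and Oas1c, with adjusted p of 0.485, 0.823, 0.303 and 0.44.

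Most members were lowest in tumour 1, and the guanylate-binding and immunity-related GTPases were higher in tumour 3 than in tumour 2. In tumour 1, 29 of 65 members (44.6%) lay at least 2-fold below both others, against a background of 20.7% of all genes, and 3 (4.62%) lay at least 2-fold above, against 22.1%. Irgm1 and Ifngr1 were among those above. The same all-gene shares stand beside the tumour 1 counts by role group and gene list below. Tumour 1 was the lowest of all for 51 members (78.5%), against 41.6% of all genes, and the highest for 8, against 47.1%. At 4-fold, 12 members (18.5%) lay below against 8.21% of all genes, namely Irf1, Irf9, Bst2, Xaf1, Mx2, Ifit1, Oas1b, Oas1g, Oas3, Gbp4, Ifi35 and Ifitm5, and 0 lay above against 6.05%. The members' median log2 difference of tumour 1 from the mean of the others was −1.11, compared with 0.11 over all genes past the filter. Scaling by library totals alone moved that all-gene median to 0.95 and gave 15 members below and 6 above, against 10.5% and 40.4% of all genes. The members' median then stood at −0.31, so its distance from the all-gene median was −1.26, compared with −1.22. Compared with tumour 3 alone, 39 of 69 members lay below in tumour 1 and 4 above, against 23.6% and 25.9% of all genes. Compared with tumour 2 alone, 31 of 68 lay below and 11 above, against 27.7% and 31.6%. As a share of all counts the members took 0.190%, 0.212% and 0.275% in tumours 1, 2 and 3.

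**Figure D1:**
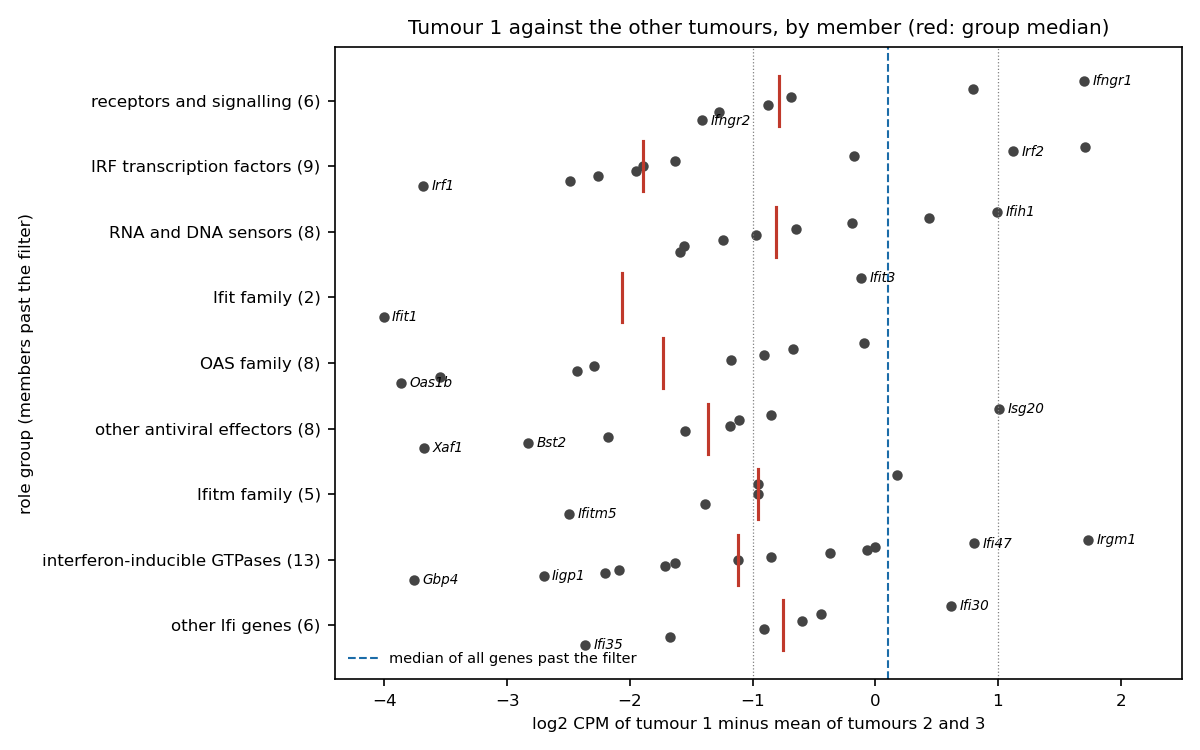
Log2 CPM of tumour 1 minus the mean of tumours 2 and 3 (x axis) for each of the 65 members past the filter, by role group (y axis, number of members in brackets). Points are genes, red bars group medians, the dashed line the median of all genes (0.11) and dotted lines a 2-fold difference. All 9 group medians lie left of the dashed line, while Irgm1 and Ifngr1 lie to the right of 1.

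Tumour 1 also had lower summed levels of leukocyte markers and almost no skeletal muscle RNA. Of 5 general leukocyte markers, 3 were called below, and their summed level was 158, 1345 and 830 CPM in tumours 1, 2 and 3, although Ptprc, which encodes CD45, was closer, at 17.3, 27.1 and 26.9 CPM. Coro1a took most of that sum in tumours 2 and 3, at 33.5, 867 and 460.2 CPM, and Cd53 was highest in tumour 1, at 18.5, 6.96 and 15.2 CPM. The macrophage list (7 genes, 4 called below) summed to 581, 3828 and 2451 CPM. C1qa took most of that sum in tumours 2 and 3, at 161, 2426 and 1369 CPM, and C1qb was closer, at 116, 185 and 193 CPM. Adgre1, which encodes F4/80, was at 13.8, 11.6 and 11.9 CPM and Cd68 at 24.5, 18.3 and 22.8 CPM. Of 5 dendritic cell markers past the filter, 4 were called below and 1 above, with a summed level of 22.6, 82.6 and 50.3 CPM. For T and NK cells, 8 markers, of which 4 passed the filter and 3 of these were called below, summed to 3.98, 17.4 and 15.7 CPM. The epithelial list, which checks the labelled tissue, was present in all tumours, with summed levels of 1599, 1344 and 1997 CPM. The share of counts from skeletal muscle markers was 0.00217%, 3.60% and 2.06%, and that of the ribosomal RNA row Rn18s-rs5 was 0.200%, 7.87% and 6.68%. Without these rows, the number of members called below in tumour 1 was 29 as well. The part of these cells, of RNA composition and of the lane in the lower member levels of tumour 1 was not tested.

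The chains of the interferon gamma receptor were called in opposite directions in tumour 1. Ifngr1, the ligand-binding chain of the interferon gamma receptor, was at 31.1 CPM in tumour 1 (29.8 to 32.4), 8.95 in tumour 2 (7.00 to 11.3) and 10.04 in tumour 3 (8.54 to 11.7). Ifngr2, its signalling chain, was at 106, 325 and 244 CPM and was called below in tumour 1. Tumour 1 was thus the highest for the first chain and the lowest for the second. Ifnar2 of the type I receptor was at 56.7, 26.8 and 39.8 CPM, and its partner Ifnar1 at 45.8, 84.8 and 64.5 CPM. Neither was called, and with library totals alone the difference of Ifnar1 changed sign. Stat2, a transcription factor specific to the type I pathway, was at 13.2, 31.7 and 32.6 CPM and called below in tumour 1.

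All IRFs passed the filter, and 6 of them were called below in tumour 1. Irf1 (chromosome 11, 53770014 to 53778374) was at 48.3 CPM in tumour 1 (46.7 to 49.99), 709 in tumour 2 (690.4 to 727) and 544 in tumour 3 (533 to 556). Tumours 2 and 3 were 14.7-fold and 11.3-fold above tumour 1. Irf9 (chromosome 14, 55603571 to 55610030), the DNA-binding partner of Stat2, was at 17.1, 100.05 and 92.2 CPM. The other 4 below were Irf5, which acts downstream of Toll-like receptors in myeloid cells, at 10.1, 61.1 and 39.0 CPM, Irf7, the amplifier of type I interferon production, at 11.8, 45.2 and 45.7 CPM, Irf8, a factor of myeloid and dendritic cells, at 12.4, 43.9 and 33.9 CPM, and the lymphoid factor Irf4 at 0.810, 3.60 and 2.80 CPM. Irf4, Irf5 and Irf8 are expressed mainly in leukocytes, whose summed markers were also lowest in tumour 1. The part of those cells in these values was not tested.

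Irf3 and Irf2 followed other patterns. Irf3, which is present before stimulation and is activated by phosphorylation, was nearly level, at 61.3, 64.4 and 74.6 CPM, or 66.8 ± 6.92 CPM (SD, n = 3). Its tumour 1 difference of −0.18 changed sign with library totals, to 0.67, and without the GC and length trend, to 0.55. Irf2, which competes with Irf1 for its sites, was at 25.8, 8.20 and 17.0 CPM and was called below in tumour 2. Their log2 differences of tumour 3 from tumour 2 were 0.21 and 1.04.

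**Figure D2:**
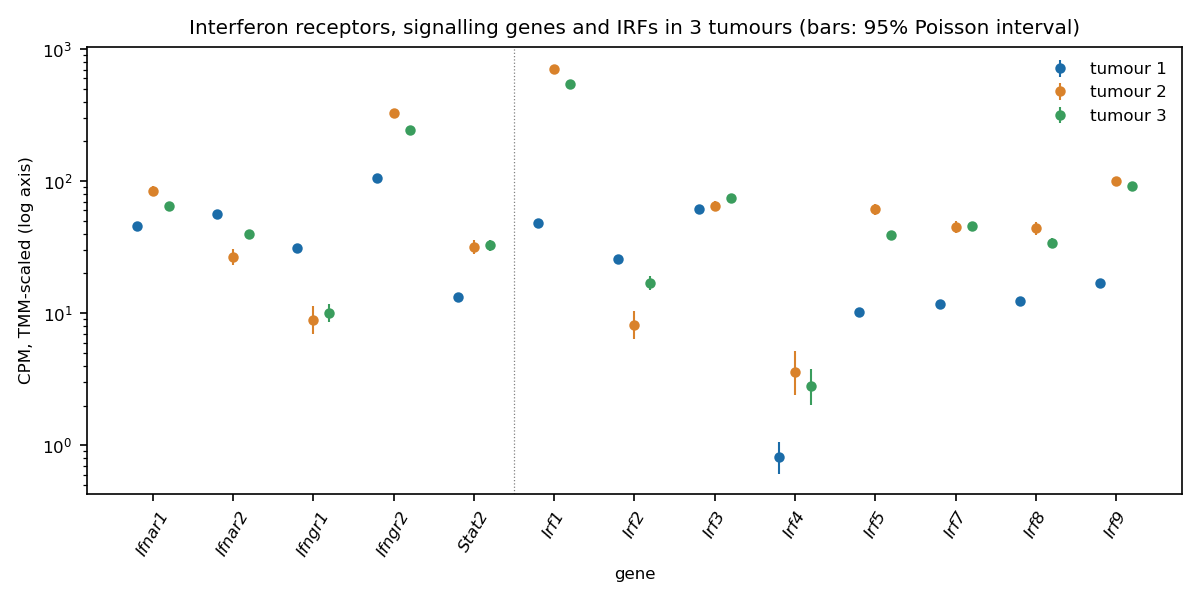
CPM on a log axis (y) of receptor and signalling genes and IRFs (x) in each tumour, with 95% Poisson intervals as bars. Tumour 1 lies lowest for Irf1, Irf4, Irf5, Irf7, Irf8 and Irf9 and highest for Ifngr1, Ifnar2 and Irf2, and Irf3 is nearly level.

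All 8 sensors passed the filter, 3 of them called below in tumour 1 and 0 above. Ddx58, which encodes the RNA sensor RIG-I, was at 25.3, 43.7 and 35.8 CPM, not called, and its sign changed with library totals. Dhx58 (LGP2), its relative without signalling domains, was at 4.13, 11.3 and 13.4 CPM and Zbp1, a sensor of Z-form nucleic acid, at 9.06, 23.7 and 31.6 CPM, both below in tumour 1. Ifih1, which encodes the long-RNA sensor MDA5, went another way, at 10.2, 3.48 and 7.44 CPM, and was called below in tumour 2. Of the DNA-binding HIN-200 family, Ifi204 was called below in tumour 1, at 6.82, 14.9 and 17.7 CPM. Ifi203 was at 10.6, 21.004 and 20.8 CPM, Ifi205 at 4.45, 5.34 and 4.83 CPM, and Ifi202b at 4.73, 2.24 and 5.34 CPM, called below in tumour 2.

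Neighbouring antiviral genes that are commonly induced together had different patterns. The 6 Ifit genes lie within 99.3 kb of chromosome 19 (34550694 to 34650009). Ifit1 was at 2.05 CPM in tumour 1 (1.73 to 2.42), 42.6 in tumour 2 (38.2 to 47.4) and 27.0 in tumour 3 (24.5 to 29.7), so that tumours 2 and 3 were 20.8-fold and 13.2-fold above tumour 1. Ifit3, with a similar pair of ISRE matches, was at 2.60, 2.98 and 2.67 CPM and did not differ beyond counting noise. Counts of Ifit1, Ifit3, Ifit3b and Ifit1bl2 included fractions, so the values of these related genes are uncertain. Ifit2, below the filter, had 255, 6 and 23 counts and Ifit3b 82, 5 and 10 counts, which are 3.69, 0.746 and 1.46 CPM and 1.19, 0.621 and 0.636 CPM. Tumour 1 was thus lowest for Ifit1 and highest for Ifit2. Ifit1bl1 had 8, 0 and 3 counts and Ifit1bl2 8, 0 and 2.

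The OAS family includes enzymes that make 2-5A, the activator of RNase L, but not every member of it is such an enzyme. Of 12 rows, 8 passed the filter and 4 (Oas1d, Oas1e, Oas1f and Oas1h) had 0 counts in every library. In tumour 1, 4 of the 8 were called below. Oas1b was at 1.78, 32.8 and 21.7 CPM, Oas3 at 1.89, 25.1 and 20.8 CPM, Oasl1 at 3.95, 24.1 and 15.8 CPM, and Oas1g at 1.49, 7.08 and 9.72 CPM. Of these, Oas1b, Oas3 and Oas1g also met the 4-fold rule. Oas2, at 5.18, 9.69 and 7.05 CPM, and Oasl2, at 9.84, 18.1 and 18.9 CPM, were not called, and Oas1c was level, at 1.27, 1.12 and 1.65 CPM. Oas1a was at 5.94, 7.71 and 23.6 CPM, higher in tumour 3 than in both others. Oas1a and Oas1g are near-identical copies and had fractional counts, so their separate values are uncertain.

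Of the other 9 antiviral effectors, 8 passed the filter, with 5 called below in tumour 1 and 0 above. Bst2 (chromosome 8, 71534255 to 71537456) was at 22.8, 171 and 154 CPM. Xaf1 (chromosome 11, 72301629 to 72313733), an interferon-induced antagonist of the apoptosis inhibitor XIAP, was at 5.80 CPM in tumour 1 (5.24 to 6.39), 110.2 in tumour 2 (103 to 118) and 51.0 in tumour 3 (47.6 to 54.7). It was the 1 member called above in tumour 2, against a background of 5.43%. Isg15 was at 6.74, 19.3 and 20.4 CPM, while Usp18, which removes Isg15 from proteins, was at 2.34, 3.11 and 5.85 CPM and not called. Mx2, a dynamin-like GTPase, was at 1.07, 4.97 and 5.15 CPM, and Cmpk2, a mitochondrial nucleotide kinase, at 1.79, 4.23 and 3.69 CPM. Its chromosomal neighbour Rsad2, which encodes viperin, was at 1.89, 5.59 and 3.43 CPM and was not called. Isg20, an exonuclease, was at 3.48, 0.994 and 2.86 CPM, from 241, 8 and 45 counts. Mx1, below the filter, had 104, 3 and 18 counts, or 1.503, 0.373 and 1.14 CPM.

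Per length, Ifitm3, Ifitm2 and Irf1 had the highest mean levels of the members. As mean CPM per kb of the longest transcript, Ifitm3 was at 269, Ifitm2 at 244, Irf1 at 203 and Bst2 at 146, and Ifngr2 followed at 60.7. Within tumour 1 alone the order changed. Ifitm3 at 165 and Ifitm2 at 149.5 CPM per kb were followed by Ifi30 at 49.8, Irgm1 at 42.0 and Ifi27l2a at 40.0. Bst2, at 28.8, and Irf1, at 22.6, stood lower. Ifitm proteins sit in membranes and hinder viral entry. In CPM, Ifitm3 was at 112, 194 and 242 and Ifitm2 at 97.9, 199.6 and 182, both lowest in tumour 1 without being called, although the difference of Ifitm2 changed sign, to 0.07, without the GC and length trend. Ifitm1 was level at 3.28, 2.36 and 3.56 CPM. The bone-associated Ifitm5 was at 0.535, 2.36 and 4.64 CPM, called below in tumour 1, and Ifitm10 at 0.766, 1.37 and 3.24 CPM. Ifitm6 had 15, 0 and 0 counts and Ifitm7 had 0 in every library.

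Of the 6 other Ifi genes past the filter, 2 were called below in tumour 1. Ifi35 was at 19.0, 105 and 91.6 CPM and Ifi44 at 5.49, 15.3 and 20.3 CPM. Ifi44l, its neighbour, was at 3.17, 4.85 and 7.44 CPM. Ifi27, at 29.4, 35.8 and 44.4 CPM, and its neighbour Ifi27l2a, at 18.5, 23.7 and 33.2 CPM, were not called, and both changed sign with library totals and without the GC and length trend. Ifi30, a lysosomal thiol reductase of antigen-presenting cells, was highest in tumour 1, at 48.8, 25.4 and 39.8 CPM. Ifi27l2b had 1, 0 and 0 counts.

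The interferon-inducible GTPases act on the membranes of vacuoles that hold intracellular pathogens. Of 16, 13 passed the filter, and all 13 were higher in tumour 3 than in tumour 2, with a median log2 difference of 1.15 compared with 0.03 over all genes. Of these, 9 (69.2%) were at least 2-fold higher, against a background of 8.81% of all genes. Of the other 52 members past the filter, 6 were, with a median of 0.07. The 6 were Irf2, Ifih1, Ifi202b, Isg20, Oas1a and Ifitm10. For all members the count was 15 of 65 (23.1%), with 1, Xaf1, at least 2-fold higher in tumour 2, against 7.39%. After removal of the GC and length trend, 9 of the 65 members were at least 2-fold higher in tumour 3, 6 of them GTPases, against 7.62% of all genes.

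The largest of these differences was that of Ifi47 (chromosome 11, 49076587 to 49096974), at 37.4 CPM in tumour 1, 11.4 in tumour 2 (9.22 to 14.0) and 39.7 in tumour 3 (36.7 to 43.0). Tumour 2 stood below the 2 others, which were level. Gbp2b (chromosome 3, 142594847 to 142619179), often called Gbp1, was at 5.51 CPM (4.97 to 6.09), 9.32 (7.33 to 11.7) and 31.8 (29.1 to 34.8), and its neighbour Gbp2 at 6.78, 15.04 and 33.4 CPM. For both, tumour 3 was highest and tumour 1 lowest, with intervals that do not overlap. Iigp1 (chromosome 18, 60376027 to 60392634), an effector immunity-related GTPase, was at 7.14, 27.6 and 79.5 CPM, a 2.88-fold difference of tumour 3 from tumour 2. Igtp was at 6.87, 19.3 and 45.0 CPM, Gbp6 at 3.96, 12.4 and 27.5 CPM and Gbp7 at 5.22, 6.59 and 13.5 CPM. The last 2 of the 9 were Gbp3, at 5.54, 3.36 and 10.04 CPM, and Irgm2, at 5.58, 3.48 and 8.90 CPM. Gbp4, Gbp8, Gbp9 and Irgm1 were less than 2-fold apart between these tumours, with Gbp4 at 5.78, 65.2 and 95.4 CPM. Gbp5 had 139, 5 and 35 counts, Gbp10 16, 0 and 0, and Gbp11 22, 0 and 0, all below the filter. Several of these genes are near-identical copies, and counts of Gbp3, Gbp4 and Gbp6 to Gbp11, Ifi47, Igtp and Irgm2 included fractions more than 0.01 from a whole number, so values of single copies are uncertain. The annotated spans of Igtp and Irgm2 overlap, as do those of Gbp4, Gbp8 and Gbp9, and the strand setting of the counts is not given.

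**Figure D3:**
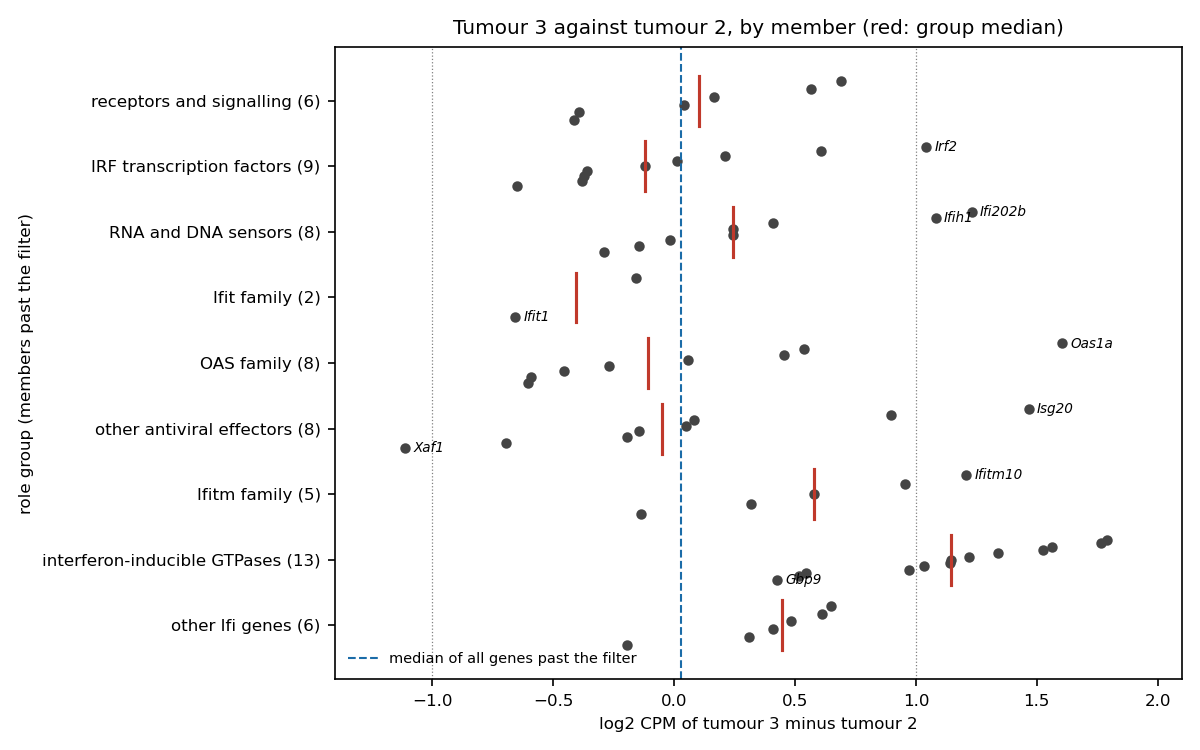
Log2 CPM of tumour 3 minus tumour 2 (x axis), both with the same lane number, for the 65 members by role group (y axis, number of members in brackets). Points are genes, red bars group medians, the dashed line the median of all genes (0.03) and dotted lines a 2-fold difference. The GTPases have a median of 1.15 and lie wholly to the right of 0. The medians of the Ifit, IRF, OAS and other antiviral effector groups lie left of the dashed line.

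Against both other tumours, 8 members (12.3%) were at least 2-fold higher in tumour 3, with a background of 0.865%: Gbp2, Gbp2b, Gbp6, Gbp7, Igtp, Iigp1, Oas1a and Ifitm10. Without tumour 1 the count was 15, against 8.48% of all genes, and without tumour 2 it was 39 of 69, against 23.6%. Members at least 2-fold below both others in tumour 3 numbered 0, against 1.35%. At 4-fold, 0 members were called in either direction in tumour 3, against 0.0787% of all genes below and 0.0787% above, or in tumour 2, against 0.59% below and 0.252% above. In tumour 2, 5 members (7.69%) lay below both others, near the background of 7.14%: Irf2, Ifi202b, Ifih1, Ifi47 and Isg20. That count was 15 without tumour 1, against 8.48% of all genes, and 11 of 68 without tumour 3, against 31.6%. With library totals alone it was 9, against 17.2%, with 0 above. The GTPases summed to 214 CPM in tumour 2 and 461 CPM in tumour 3. Marker lists of other cells moved in both directions. The leukocyte markers summed to 1345 CPM in tumour 2 and 830 in tumour 3, with Coro1a and Laptm5 lower and Cd52 and Cd53 higher in tumour 3. The macrophage list summed to 3828 and 2451 CPM, of which C1qa was 2426 and 1369 CPM. C1qc, Mrc1 and Csf1r were also lower in tumour 3, whereas C1qb, Adgre1 and Cd68 were level or higher. Markers of T and NK cells summed to 17.4 and 15.7 CPM, but 3 of the 4 past the filter (Cd3e, Gzma and Nkg7) were higher in tumour 3, and Cd4 was lower, at 7.21 and 3.62 CPM. Of the neutrophil markers, S100a8 was at 1.62 and 13.9 CPM and S100a9 at 4.97 and 17.4 CPM, while Csf3r was at 23.0 and 8.71 CPM. The epithelial list summed to 1344 and 1997 CPM. The part of any cell type in these differences was not tested.

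**Figure D4:**
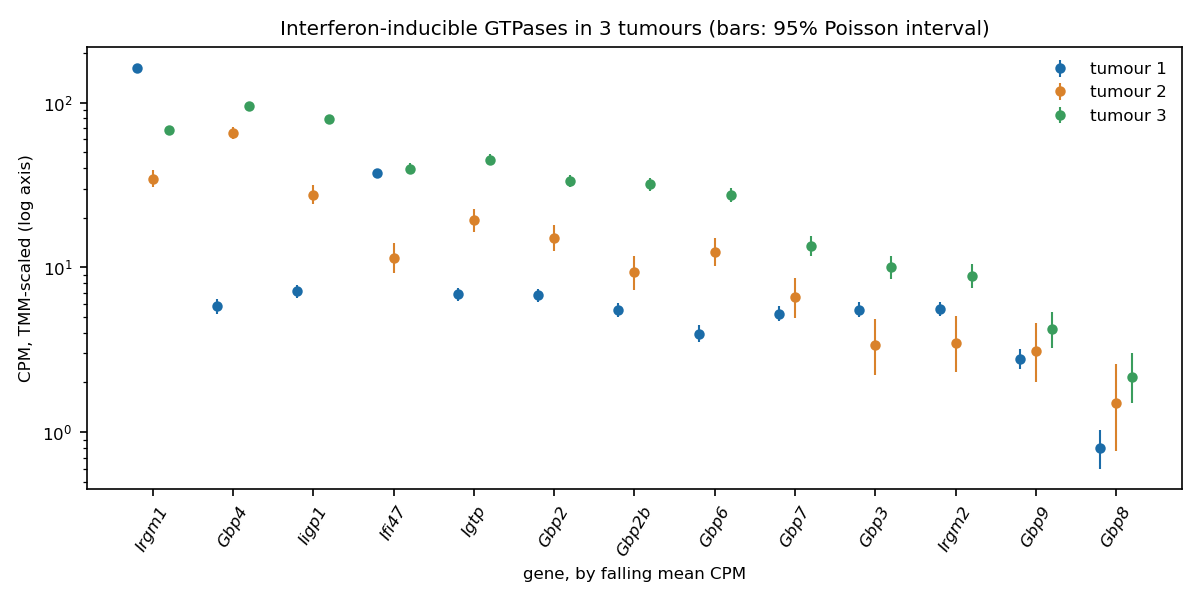
CPM on a log axis (y) of the 13 GTPases past the filter (x, by falling mean) in each tumour, with 95% Poisson intervals as bars. Tumour 3 lies above tumour 2 for each gene, and tumour 1 lies lowest for 9 of them but highest for Irgm1, at 161 CPM.

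Irgm1 was the only one of the member GTPases past the filter called above in tumour 1. For Ifi47, Gbp3 and Irgm2, tumour 1 was not the lowest either. Irgm1 (chromosome 11, 48861968 to 48871683), which regulates the effector GTPases and autophagy, was at 161 CPM in tumour 1 (158 to 164), 34.6 in tumour 2 (30.6 to 38.9) and 67.7 in tumour 3 (63.7 to 71.9). Tumour 1 was 4.66-fold above tumour 2 and 2.38-fold above tumour 3. Its neighbour Ifi47 within 235.0 kb was not called in tumour 1. Elsewhere on the chromosome, Igtp and Irgm2, within 23.2 kb, had tumour 1 differences of −2.09 and 0.00. The 4 Gbp genes past the filter in the chromosome 3 cluster (142493978 to 142638008) were each at least 2-fold higher in tumour 3 than in tumour 2. In the chromosome 5 cluster (105014150 to 105346472) 1 of 4 was, and of all genes 8.81% were.

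The promoter elements were set beside the levels. Of 49 members with both a window and a filter pass, the 24 with an ISRE match had a median tumour 1 difference of −0.97, with 8 called below, and the 25 without had −1.39, with 13 called below. For tumour 3 against tumour 2 the medians were 0.39 with and 0.06 without a match, with 9 and 4 members at least 2-fold higher. With a GAS match the median was 0.80 over 14 members, 7 of them at least 2-fold higher, and without it 0.06 over 35, with 6. Of all genes past the filter, 20.7% were called below in tumour 1. The share at least 2-fold higher in tumour 3 than in tumour 2 was 8.81%. Of the 9 GTPases with a window, 8 held an ISRE and 4 a GAS match, so the motif split and the gene family overlap.

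GC content and length can affect read numbers. Over the 65 members, which are not independent, Spearman's rho between transcript GC content and the tumour 1 difference was −0.20, and with transcript length it was 0.00. The median GC content was 51.1% in the 29 members called below and 47.5% in the 33 not called. Without the GC and length trend of all genes, 35 members were called below, against 19.1% of all genes. Of the 35, 27 were shared with the 29.

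**Figure D5:**
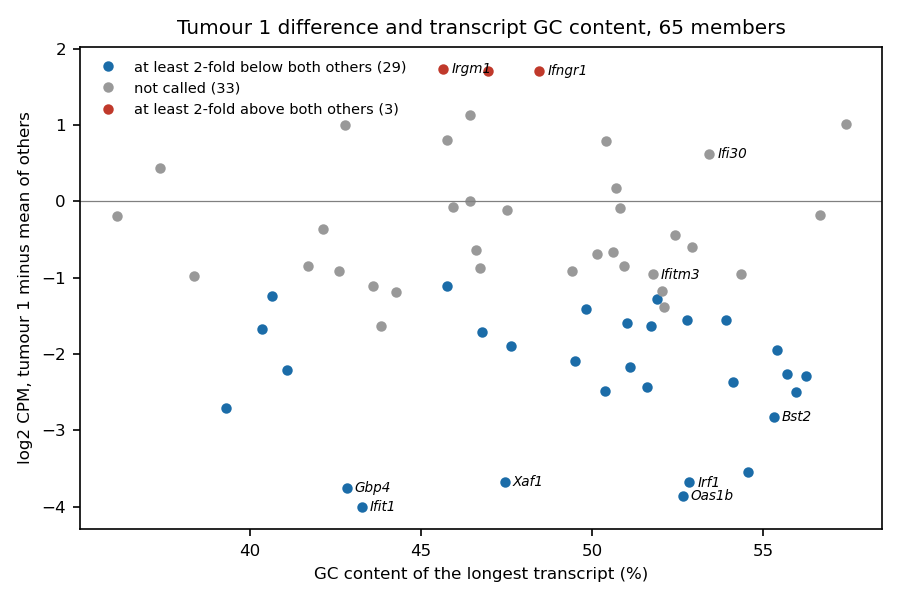
GC content of the longest transcript in percent (x) against log2 CPM of tumour 1 minus the mean of the others (y) for 65 members, coloured by the 2-fold call. Members called below run from 39.3% to 56.3%, with Gbp4 and Ifit1 among those of low GC content and Irf1 and Oas1b among those above 50%.

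Transcripts of the interferons themselves were near the counting limit. Of 9 ligand rows, 7 had 0 counts in all libraries, Ifnb1 had 1, 0 and 2 counts, and Ifng, which encodes interferon gamma, had 2, 0 and 9 counts. A count of 0 in tumour 2 allows up to 0.373 CPM, so lower levels were not detectable there. Of 70 further genes of the pathway outside the symbol rule, ligands included, 59 passed the filter. In tumour 1, 19 (32.2%) were called below and 7 (11.9%) above, against 20.7% and 22.1% of all genes. Between tumours 3 and 2, 7 (11.9%) were at least 2-fold higher in tumour 3, near the 8.81% of all genes.

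Signalling genes of this list went both ways in tumour 1. Socs1, the feedback inhibitor of Jak kinases, was at 3.01, 48.1 and 38.1 CPM, and Stat3 at 235, 1096 and 817 CPM. The phosphatase gene Ptpn11 was at 136, 21.5 and 25.3 CPM. Of 10 kinases and regulators, 3 were called below and 3 above, against 20.7% and 22.1% of all genes. With so few genes, these counts are not far from those shares. Those above were Ptpn11, the kinase gene Jak1 at 68.0, 26.7 and 29.8 CPM, and Socs3, which restrains signalling through Stat3, at 69.5, 15.04 and 26.6 CPM. Jak1 and Socs3 were named after their values were seen.

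Of 37 other induced genes past the filter, 15 were called below in tumour 1 and 2 above, against 20.7% and 22.1% of all genes. Tap2, which carries peptides to MHC class I, was at 34.4, 1164 and 866 CPM and the immunoproteasome gene Psmb10 at 19.3, 730.0 and 568 CPM. These were the genes of highest mean CPM in this list beside Stat3. The immunoproteasome gene Psmb9 was at 10.2, 140.2 and 259.7 CPM and Psmb8 at 24.6, 158 and 269 CPM. Ube2l6, the Isg15-conjugating enzyme, was at 9.45, 223 and 121 CPM, Slfn2 at 10.6, 185 and 102 CPM, and the nuclear body gene Sp100 at 10.6, 81.3 and 53.5 CPM. B2m, the light chain of MHC class I, was at 166, 397 and 639.8 CPM. At least 2-fold above both other tumours in tumour 3 were 5 of these 37 genes, against 0.865% of all genes. They were Cxcl10, a chemokine for T cells, at 2.85, 9.82 and 33.6 CPM, its relative Cxcl9 at 2.37, 14.0 and 75.3 CPM, Tap1 at 17.6, 28.8 and 61.0 CPM, Nlrc5, the activator of MHC class I genes, at 2.76, 4.23 and 10.2 CPM, and Tgtp2, an immunity-related GTPase, at 4.004, 2.36 and 16.5 CPM. Tgtp1, listed beside Tgtp2, went another way and was highest in tumour 1, at 13.9, 4.60 and 7.12 CPM. How reads were divided between Tgtp1 and Tgtp2 was not tested, so their separate values are uncertain. Apart from Cxcl9, the 5 genes were named after their values were seen, as was Tgtp1.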

How the data were processed

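Values deposited by the authors are estimated counts for each gene symbol, not scaled for depth or length, from Salmon per the file headers. The submitters' processing notes also name STAR, SAMtools, Picard and build mm10. The sources used here give no versions, annotation release or strand, so reads of a gene and its antisense partner cannot be told apart. Counts were rounded and filtered with filterByExpr of edgeR 4.0.16 (R 4.3.3, minimum count 10, minimum total 15), which in 1 group requires presence in every library. Library totals were scaled by TMM, with factors of 1.48, 0.722 and 0.936, and log2 CPM used a prior count of 2. A difference is log2 CPM of a tumour minus the mean of the others. The chi-square test set counts against scaled totals. Positions, lengths and GC contents came from GENCODE M21 (GRCm38, also named mm10), promoters from RefSeq (GRCm38.p6). Alternatives were DESeq2 1.42.0 size factors, library totals, other filters and prior counts, thinned counts, removal of the GC and length trend, removal of the muscle list together with Rn18s-rs5, a 4-fold rule, and leaving out each tumour. Members, role groups, lists and tests were chosen with earlier results of these data known. The rule for naming genes took all members of role groups with at most 6 past the filter, otherwise the 4 highest by mean CPM and the 3 of largest log2 range, and, of other pathway genes, those 4-fold apart in tumour 1 and the 5 highest. Other genes given by value were named after their values were seen. Some members are counted but not reported here by name.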

Additional observations from a re-analysis of the deposited data

How the results depend on the processing

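Apart from library totals, the other scalings, filters, prior counts, thinning and trend removal gave 26 to 35 members below in tumour 1. The share of all genes there was 15% to 22.1%. Library totals alone gave 15 members, against 10.5% of all genes, and a 4-fold rule 12, against 8.21%. Without tumour 2 the number was 39, against 23.6%, and without tumour 3 it was 31, against 27.7%. The number above in tumour 1 was 6 with library totals, against 40.4% of all genes, and 7 without a filter, against 25.4%. At 4-fold it was 0, against 6.05%. It was 4 without tumour 2, against 25.9%, and 11 without tumour 3, against 31.6%. In tumour 2 the number below was 3 with DESeq2 size factors (6.1% of all genes), 9 with library totals (17.2%) and 10 with no filter (11.1%). It was 3 in genes averaging at least 5 CPM (8.17%), 2 with thinned counts (6.22%) and 2 without the GC and length trend (6.37%). At 4-fold it was 0 (0.59%), without tumour 1 it was 15 (8.48%) and without tumour 3 it was 11 (31.6%). The number above in tumour 2 was 0 with library totals (1.48%) and 0 at 4-fold (0.252%). It was 1 without tumour 1 (7.43%) and 31 without tumour 3 (27.7%). In tumour 3 the number above was 0 at 4-fold (0.0787% of all genes), 15 without tumour 1 (8.48%) and 39 without tumour 2 (23.6%). The number below in tumour 3 was 1 without tumour 1 (7.43%) and 4 without tumour 2 (25.9%). The members' median in tumour 2 turned from 0.25 to −0.45 with library totals, and ran from −0.34 without tumour 1 to 0.88 without tumour 3. Members at least 2-fold higher in tumour 3 than in tumour 2 numbered 9 without the GC and length trend, compared with 15, and 12 to 20 in the other alternatives, where 7.66% to 19.1% of all genes were. This count was added after seeing the data. The cause was not tested, other than that fewer tumours to differ from, or a larger fold, changes a count by construction. Depth limits genes with few counts in tumour 2, such as Isg20 with 8. No paired analysis was possible because there is 1 group.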
